A study of Mus musculus with 6 samples.

Results

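The tripartite motif (TRIM) ubiquitin ligase family was followed in activated mouse CD4+ T cells that lacked miPEP31, a micropeptide read from the primary miR-31 transcript, and in wild-type cells. Members were all rows of the count table whose gene ID carries a symbol made of Trim, a number and at most 1 letter, without pseudogenes, and whose mean over the 6 libraries was at least 0.5 counts per 1000000 counts of the library (CPM). Of 52856 rows, 68 carried such a symbol and 42 reached that minimum. There were 3 libraries of miPEP31 KO cells and 3 of wild-type (WT) cells. In both groups the cells came from the spleen of C57BL/6 mice aged 8 weeks, were kept in 1640 medium with 10% fetal bovine serum, and were activated for 48 h with anti-CD3/28 antibodies, which act on the T cell receptor complex and its costimulator. The labels do not say how the KO allele was made, nor whether the 3 libraries of a group came from separate mice, so p-values measure the spread between these libraries, which may be technical.

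TRIM proteins are named for a RING finger, 1 or more B-boxes and a coiled coil in tandem. The RING finger binds a ubiquitin-conjugating enzyme and passes ubiquitin to a substrate, and the domain at the other end of the protein, often a PRY-SPRY domain, sets what is bound. Many genes of the family are induced by interferon, and their products restrict viruses or tune the signals from RNA and DNA sensors, while others act in transcription, the cell cycle, muscle or nerve cells.

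Library totals were 22865487 to 26295776 counts in KO libraries and 23398486 to 24018687 in WT libraries. Mir31, the microRNA gene of the locus, had 0 counts in all 6 libraries and so does not check the genotype labels. Of 14387 rows tested with edgeR's quasi-likelihood test, 6806 (47.3%) passed a Benjamini-Hochberg adjusted p of 0.05, so the test called nearly as many rows as it left. The 7 T cell markers, among them Cd3e and Cd4, summed to 1886 to 1929 CPM in KO libraries and 1941 to 2050.1 CPM in WT libraries, with 5 of the 7 lower in KO and 1 higher. Cd4 averaged 302 CPM in KO and 456 CPM in WT, Trac 166 CPM in KO and 241 CPM in WT, and the marker that was higher, Cd5, 621 CPM in KO and 374 CPM in WT. The 6 B cell markers summed to 195 to 452 CPM in KO libraries and 164 to 229 CPM in WT libraries, with 3 of the 6 higher in KO and 0 lower. The 4 natural killer cell markers summed to 21.4 to 30.4 CPM in KO libraries and 10.2 to 12.3 CPM in WT libraries. Most of that sum was Eomes (mean 15.5 CPM in KO, 5.34 CPM in WT) and Klrk1 (9.98 and 5.36 CPM). Ncr1 (0.195 CPM in KO, 0.115 CPM in WT) and Klrb1c (0.303 and 0.626 CPM) were near 0 and differed in direction. The 2 CD8 T cell markers summed to 15.9 to 36.9 CPM in KO and 12.5 to 15.8 CPM in WT. For the 6 dendritic cell markers the sums were 12.0 to 13.1 CPM in KO and 6.25 to 7.58 CPM in WT. Most of these was Zbtb46, with a mean of 9.37 CPM in KO and 4.54 CPM in WT. Clec9a (dendritic cells), Adgre1 (macrophages), S100a8, S100a9 and Elane (neutrophils) were at 0 in all libraries, and the 7 macrophage and monocyte markers summed to 3.06 to 6.11 CPM in KO and 4.74 to 8.67 CPM in WT. The 4 neutrophil markers summed to at most 0.186 CPM in KO libraries and 1.39 CPM in WT libraries, and the 4 erythroid markers to at most 0.344 CPM in KO and 0.477 CPM in WT. The part of these other cells in the TRIM values below was not tested, and in bulk RNA fewer cells of a type and less RNA per cell cannot be told apart.

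Of the 42 members, 41 could be tested and 27 differed: 23 were higher in KO cells, where 25.1% of all tested rows were, and 4 were lower, where 22.2% were. The changes were much larger upward: 14 members were at least 2-fold higher (6.74% of all rows) and 1, Trim65, was at least 2-fold lower (7.07%). Among the members counted as higher, Trim30b and Trim30c met the membership minimum and the low-count filter through the KO group, which favoured that direction. In 24 members every KO library lay above every WT library (30.6% of all rows) and in 7 every KO library lay below (28.4%), which makes 31 of 41 without overlap, against 59.1% of all rows tested. The median log2 fold change (KO over WT) was 0.38 for the 41 members and 0.01 for all rows. It was uneven within the family. The 9 members of the Trim5 gene cluster on chromosome 7, all at least 2-fold higher, had a median of 2.60. The 12 members known for innate immune signalling had a median of 0.84, and the other role lists had medians of -0.27 to 0.02. With KO replicate 2, WT replicate 1 or WT replicate 3 left out, 2 members were lower instead of 4.

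**Figure D1:**
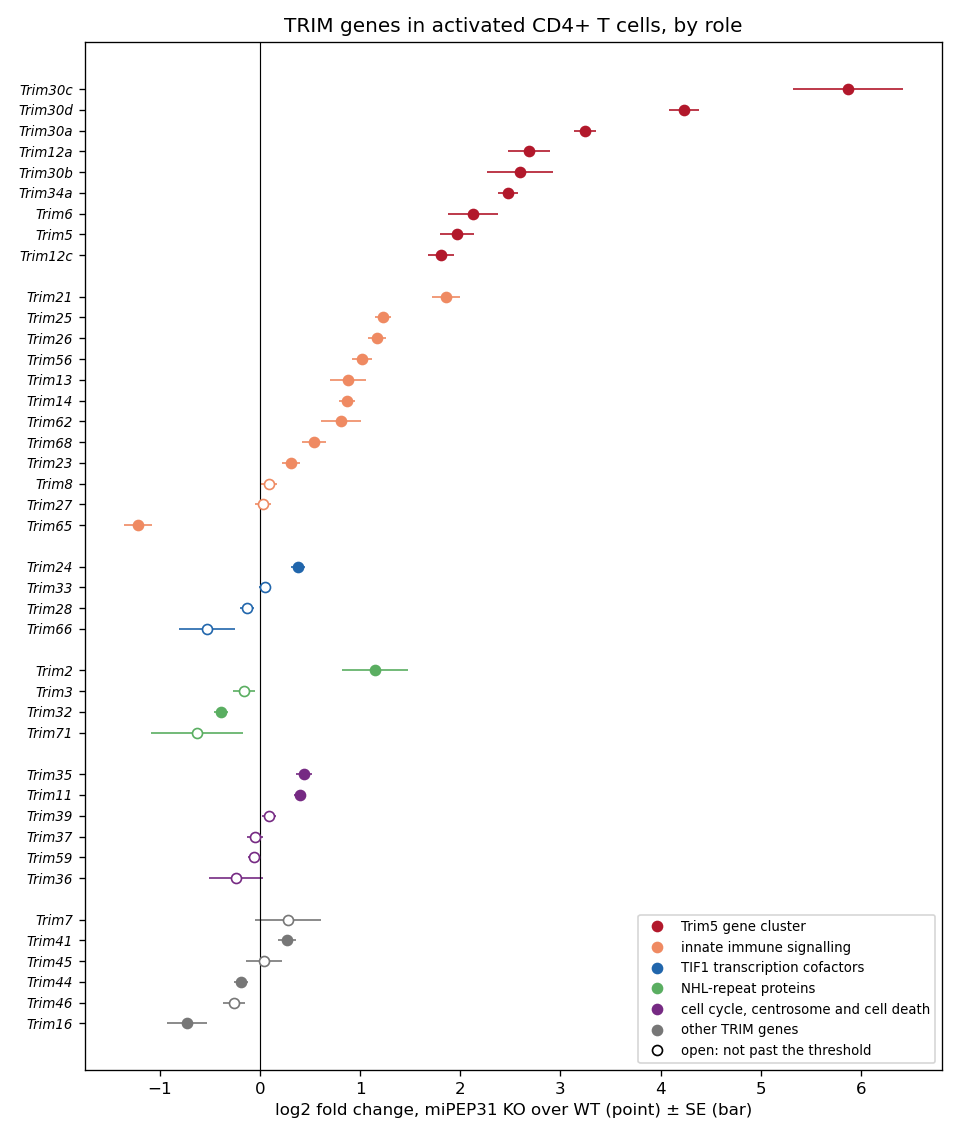
Log2 fold change (KO over WT, x axis) of the 41 tested TRIM genes, one per line and coloured by role, with bars of 1 standard error; filled points passed the edgeR threshold and open points did not. The 9 genes of the Trim5 cluster all lie to the right, at 1.81 to 5.87, and Trim65 lies farthest to the left, at -1.22.

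Summed over the 42 members, TRIM transcripts came to 3103, 2833 and 2622 CPM in KO libraries, against 1629.8, 1615 and 1684 CPM in WT libraries. The means were 2852 ± 241 CPM in KO and 1643 ± 36.2 CPM in WT (SD, n = 3 each), and all KO libraries lay above all WT libraries. Of the difference of 1209.7 CPM, 70.6% came from the 9 members in the Trim5 gene cluster, and Trim30a alone gave 38.1%, Trim30d 14.8%, Trim25 10.5%, Trim12c 7.67% and Trim56 7.22%. The 33 members outside the cluster summed to 1872 ± 90.6 CPM in KO and 1516 ± 37.2 CPM in WT (SD, n = 3 each). Trim30a made up 19.3%, 17.5% and 17.1% of TRIM counts in KO libraries, against 3.37%, 3.20% and 3.30% in WT libraries.

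**Figure D2:**
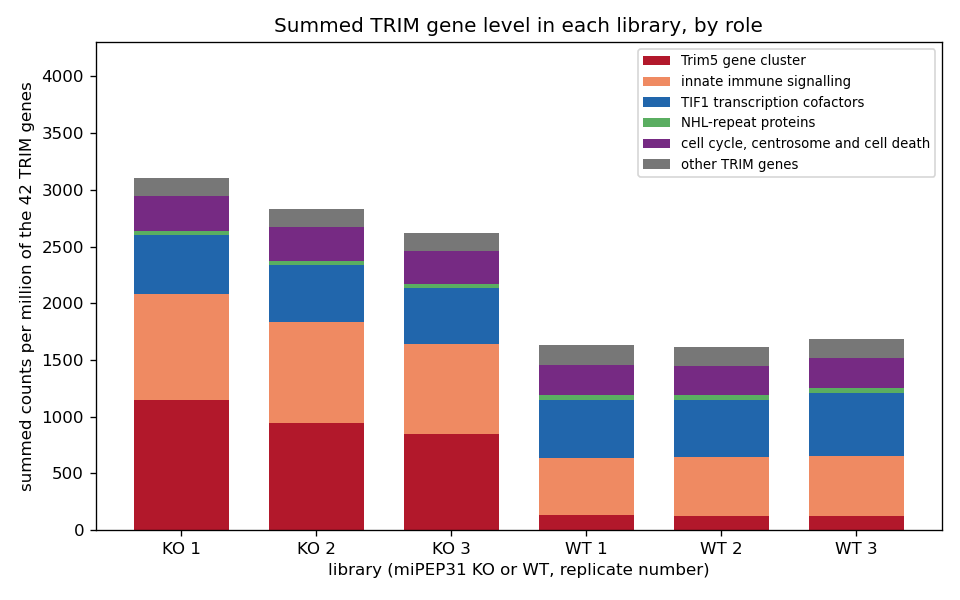
Stacked bars of the summed CPM of the 42 members (y axis) in each library (x axis), coloured by role, with KO libraries left of WT libraries. The Trim5 cluster takes 847 to 1148 CPM of the bars in KO libraries and 125 to 132 CPM in WT libraries, while the TIF1 cofactors take 491 to 522 CPM in KO and 506 to 551 CPM in WT.

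The Trim5 cluster lies on chromosome 7 (chr7:104218793-104507849, GRCm38), over 289.1 kb that hold 10 TRIM genes. It has expanded in the mouse, where Trim30 and Trim12 genes stand beside Trim5, Trim6 and Trim34. All 9 members from it were higher in KO cells, where 25.1% of all tested rows were. None of the 9 overlapped between groups, where 30.6% of all rows had every KO library above every WT library. Their median log2 fold change was 2.60, the value of Trim30b, and the range was 1.81 to 5.87, with Trim30c at the top. In WT cells Trim30b averaged 0.472 CPM and Trim30c 0.0572 CPM, below 0.5 CPM, so both met the membership minimum through the KO group.

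Trim30a, known in the mouse to dampen NF-kappaB signals by degrading Tab2 and Tab3, had 598, 496 and 449 CPM in KO libraries, against 55.0, 51.7 and 55.6 CPM in WT libraries. Its lowest KO library was far above its highest WT library, a 9.51-fold difference of means (log2 3.25, SE 0.11, edgeR adjusted p = 2.05e-06). Its neighbour Trim30d had 226, 181 and 160.4 CPM in KO libraries, against 10.0, 9.0 and 11.1 CPM in WT libraries. The groups were again far apart, 18.8-fold (log2 4.23, SE 0.15, edgeR adjusted p = 2.17e-06). The pseudogene Gm16464, which lies inside Trim30d on the same strand and shares no exon base with it, averaged 2.55 ± 0.940 CPM in KO and 0.0859 ± 0.0867 CPM in WT (SD, n = 3 each; log2 4.8, SE 0.62, edgeR adjusted p = 0.000512). Gm16464 passed the low-count filter through the KO group alone.

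The 2 remaining Trim30 genes were scarce. Trim30c had 5.0, 2.90 and 3.10 CPM in KO libraries, against 0, 0.0845 and 0.0871 CPM in WT libraries, that is 266 counts in the KO libraries together and 4 in the WT libraries together. It was close to absent in WT, so its fitted log2 change of 5.87 (SE 0.55, edgeR adjusted p = 0.000113) depends on very few WT counts. Trim30b had 2.50, 2.90 and 3.27 CPM in KO libraries, against 0.260, 0.676 and 0.479 CPM in WT libraries. It was low in both groups without overlap (log2 2.60, SE 0.33, edgeR adjusted p = 0.000533). Trim30c reached 10 counts in all 3 KO libraries and 0 WT libraries, and Trim30b in 3 KO and 2 WT libraries, so both passed the low-count filter through the KO group.

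Trim34a, a PRY-SPRY protein of the cluster, had 100.3, 84.9 and 78.7 CPM in KO libraries, against 15.3, 16.6 and 15.4 CPM in WT libraries. Its WT libraries were nearly level and its KO libraries all well above them (log2 2.48, SE 0.10, edgeR adjusted p = 3.63e-06). Its near copy Trim34b averaged 0.304 ± 0.111 CPM in KO and 0.130 ± 0.0872 CPM in WT (SD, n = 3 each), below the minimum for members and not tested. Trim12a had 43.4, 34.0 and 25.1 CPM in KO libraries, against 5.89, 5.28 and 4.66 CPM in WT libraries. Its KO libraries spread widely and stayed above all WT libraries (log2 2.69, SE 0.21, edgeR adjusted p = 5.46e-05). Trim12c had 153, 127 and 109 CPM in KO libraries, against 39.4, 37.5 and 33.6 CPM in WT libraries. It had the smallest change of the cluster and its groups did not overlap (log2 1.81, SE 0.13, edgeR adjusted p = 3.78e-05).

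Trim5, whose primate counterpart restricts retroviral capsids, had 14.5, 14.7 and 13.1 CPM in KO libraries, against 4.51, 3.04 and 3.22 CPM in WT libraries. The KO libraries were close together and all above WT (log2 1.97, SE 0.17, edgeR adjusted p = 8.11e-05). Trim6, which in human cells makes free ubiquitin chains that help activate the kinase IKK-epsilon, had 4.62, 5.17 and 4.77 CPM in KO libraries, against 1.39, 0.718 and 1.22 CPM in WT libraries. It was low in both groups and higher in each KO library (log2 2.13, SE 0.25, edgeR adjusted p = 0.000350).

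Reads from near-identical copies could have been split between them by the counting. With the copies summed, the log2 change was 3.46 (SE 0.12) for Trim30a to Trim30d, 1.96 (SE 0.14) for Trim12a with Trim12c and 2.48 (SE 0.10) for Trim34a with Trim34b, with edgeR adjusted p-values of 1.86e-06, 3.92e-05 and 3.71e-06, and each sum was higher in KO.

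The nearest tested genes on both sides of the cluster were not called, but they lie far from it. Measured from the cluster start, Olfr639 begins at -212.6 kb and Fam160a2 at 1152.4 kb, where the cluster spans 289.1 kb. Before it Olfr639, an olfactory receptor gene and the nearest one tested, had a log2 change of -0.18 (SE 0.14, edgeR adjusted p = 0.334) and Olfr635 one of 0.15 (SE 0.32, adjusted p = 0.718). After it the nearest tested gene was Fam160a2, with 38.1 ± 2.82 CPM in KO and 36.7 ± 3.35 CPM in WT (SD, n = 3 each; log2 0.05, SE 0.09, edgeR adjusted p = 0.653). The next one, Cavin3, a caveola protein gene, was higher in KO at 2.84 ± 0.869 CPM against 0.387 ± 0.0430 CPM in WT (SD, n = 3 each; log2 2.86, SE 0.33, edgeR adjusted p = 0.000295), and Smpd1 beyond it was not called (log2 0.07, SE 0.13, adjusted p = 0.700). Cavin3, too, passed the low-count filter through the KO group.

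**Figure D3:**
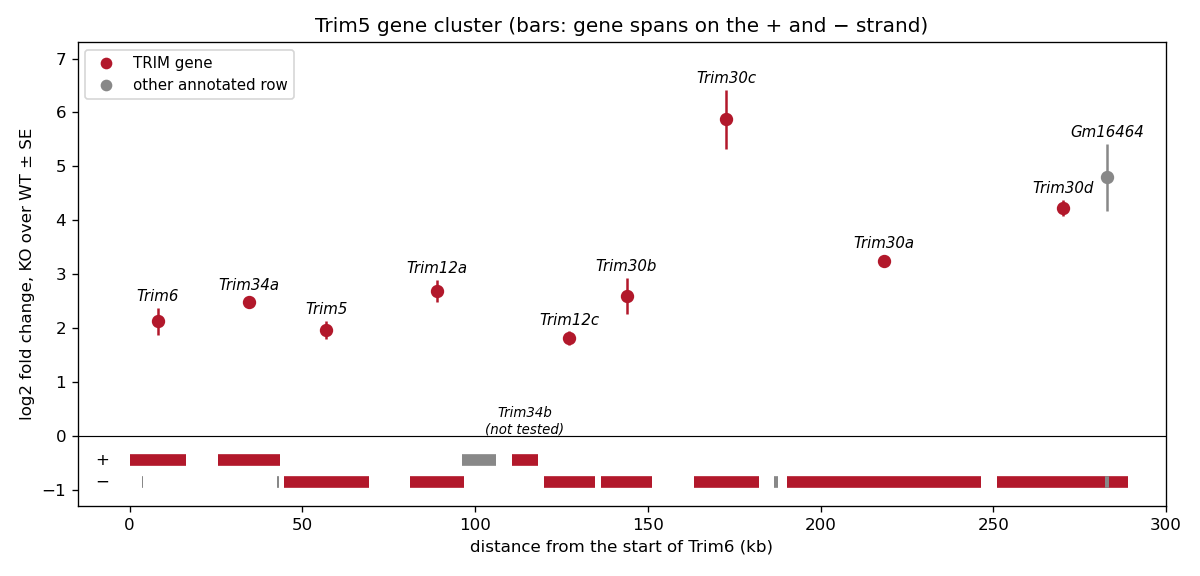
Log2 fold change (KO over WT, y axis, bars of 1 standard error) of the tested genes of the Trim5 cluster by distance in kb from the start of Trim6 (x axis), with gene spans on both strands drawn below. The 9 tested TRIM genes lie at 1.81 to 5.87 along the whole cluster, Gm16464 lies at 4.8 within Trim30d, and Trim34b was not tested.

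Promoter sequence was read because many TRIM genes are known to be induced by interferon, whose target promoters can carry an interferon-stimulated response element (ISRE). RefSeq promoter windows (GRCm38.p6, 250 bases before to 50 bases after the annotated start) were found for 33 of the 42 members, with no entry for Trim3, Trim8, Trim11, Trim14, Trim16, Trim33, Trim35, Trim36 and Trim65. They were searched for the ISRE core, which is TTTC, any 2 bases and TTTC again, and for its form on the other strand, which is GAAA, any 2 bases and GAAA; matches were allowed to overlap. All 14 members that were at least 2-fold higher had a window and 9 of them (64.3%) held the ISRE letters, against 0 of the 19 other members. Some of these 9 stretches are copies or near copies of one another, and each was counted on its own. Of the tested genes with a window, 393 of 10013 (3.92%) held them, and 3.44% of all 32851 windows in the table did. The 9 stretches of 30 bases are shown on the strand of the gene, 5′ to 3′, with the ISRE letters in capitals, so that their likeness within the cluster can be read.
Trim30a: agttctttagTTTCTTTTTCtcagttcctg
Trim30d: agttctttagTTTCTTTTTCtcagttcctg
Trim34a: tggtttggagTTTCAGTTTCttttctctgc
Trim5: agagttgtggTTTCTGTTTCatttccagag
Trim12a: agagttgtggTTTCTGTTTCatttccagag
Trim12c: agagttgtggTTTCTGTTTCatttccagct
Trim21: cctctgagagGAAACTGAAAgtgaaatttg
Trim26: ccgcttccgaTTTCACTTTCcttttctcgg
Trim2: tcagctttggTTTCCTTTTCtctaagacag

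The Trim30a and Trim30d stretches (chr7:104465210-104465239 and chr7:104507871-104507900, both minus strand) were identical over all 30 bases, with the ISRE letters starting 36 and 41 bases before the annotated start. The Trim5 and Trim12a stretches (chr7:104288136-104288165 and chr7:104315466-104315495, both minus strand) were also identical over 30 bases, and each matched Trim12c (chr7:104353359-104353388, minus strand) at 28 of 30. Trim34a held its match at chr7:104244457-104244486 on the plus strand, Trim21 at chr7:102565450-102565479 on the minus strand, Trim26 at chr17:36836976-36837005 on the plus strand and Trim2 at chr3:84212791-84212820 on the minus strand. The letters started 49, 29 and 160 bases before the annotated start in Trim5, Trim12c and Trim26. In Trim12a and Trim34a they started 10 bases after it, in Trim21 13 bases after and in Trim2 28 bases after. The Trim2 match belongs to an annotated start inside the gene, which spans chr3:84160439-84306877. Trim21 and Trim26 each had a second, overlapping match that began 6 bases farther along, and Trim30a had one more at a second annotated start. The members at least 2-fold higher whose windows lacked these letters were Trim6, Trim25, Trim30b, Trim30c and Trim56. The gamma-interferon activated site TTCNNNGAA, whose complement reads the same, was in 1 of these 14 windows (Trim30c), in 2 of the 19 others (Trim45 and Trim46) and in 8.19% of the tested genes with a window. A match is a description of letters and shows no binding.

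Among the members known for innate immune signalling, 12 reached the minimum and all were tested. KO cells had 9 of them higher and 1 lower, and 2 were not called (median log2 change 0.84), where 25.1% of all rows were higher and 22.2% lower. The role lists were drawn up with earlier results of these data known, so such counts describe the list and test nothing about it. Together they summed to 929.6, 883 and 795 CPM in KO libraries, against 504, 516 and 531 CPM in WT libraries.

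Trim21, a cytosolic receptor that binds the Fc part of antibodies on entering viruses, had 67.7, 51.4 and 45.8 CPM in KO libraries, against 15.3, 14.3 and 15.8 CPM in WT libraries. It was the member outside the cluster with the largest change among those called, 3.63-fold, and its groups did not overlap (log2 1.86, SE 0.14, edgeR adjusted p = 5.58e-05). Trim25, which ubiquitinates the RNA sensor RIG-I, had 238, 224 and 200.2 CPM in KO libraries, against 97.4, 92.9 and 91.9 CPM in WT libraries. Each KO library lay far above each WT library, 2.35-fold in the means (log2 1.23, SE 0.08, edgeR adjusted p = 2.01e-05).

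Trim26, which has been tied to turnover of the factor IRF3 in the nucleus, had 85.3, 86.7 and 70.8 CPM in KO libraries, against 35.5, 37.8 and 34.8 CPM in WT libraries. The KO libraries lay well above the WT libraries (log2 1.17, SE 0.09, edgeR adjusted p = 5.55e-05). Trim56, which acts on the DNA sensing pathway through STING and cGAS, had 199, 167 and 150.0 CPM in KO libraries, against 82.1, 88.1 and 83.8 CPM in WT libraries. It was close to 2-fold higher and did not overlap (log2 1.02, SE 0.10, edgeR adjusted p = 0.000166).

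The 5 other members of this group that were higher changed by less than 2-fold. Trim14, an adaptor at the mitochondrial protein MAVS, averaged 82.3 ± 7.45 CPM in KO and 45.1 ± 1.61 CPM in WT (SD, n = 3 each; log2 0.87, SE 0.08, edgeR adjusted p = 0.000116). Trim14 shares 1356 exon bases with Nans on the opposite strand, and Nans averaged 121 CPM in KO and 122 CPM in WT. Trim13, a ligase of the endoplasmic reticulum, had a log2 change of 0.88 at 4.99 to 6.51 CPM in KO and 2.66 to 3.42 CPM in WT, Trim68 one of 0.54, Trim23, which carries an ARF GTPase domain, one of 0.31, and Trim62 one of 0.81. The calls of Trim62 and Trim23 rested on single libraries: without KO replicate 2 the edgeR adjusted p was 0.0589 for Trim62 and 0.0509 for Trim23, without WT replicate 1 it was 0.05, just over the threshold, and 0.0880, and without WT replicate 3 it was 0.0860 for Trim23.

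Trim65, which ubiquitinates the RNA sensor MDA5, went the other way. It had 3.80, 4.95 and 4.69 CPM in KO libraries, against 10.2, 11.2 and 9.92 CPM in WT libraries. Every KO library lay below every WT library, 2.33-fold lower in the means (log2 -1.22, SE 0.14, edgeR adjusted p = 0.000357). Trim65 shares 225 exon bases with its neighbour Trim47, which averaged 0.401 CPM in KO and 0.289 CPM in WT.

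Trim27, a ligase that acts in endosomal sorting and in T cell potassium channel control, had 116, 125 and 117 CPM in KO libraries, against 109, 113 and 129 CPM in WT libraries. Its groups overlapped and the test did not call it (log2 0.03, SE 0.08, edgeR adjusted p = 0.784), and the sign of that value changed when KO replicate 2 or WT replicate 1 was left out or upper-quartile scaling was used. Trim8, which promotes NF-kappaB signals, had 78.7 to 85.3 CPM in KO and 69.8 to 84.8 CPM in WT and was not called (log2 0.09, SE 0.08, edgeR adjusted p = 0.402).

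**Figure D4:**
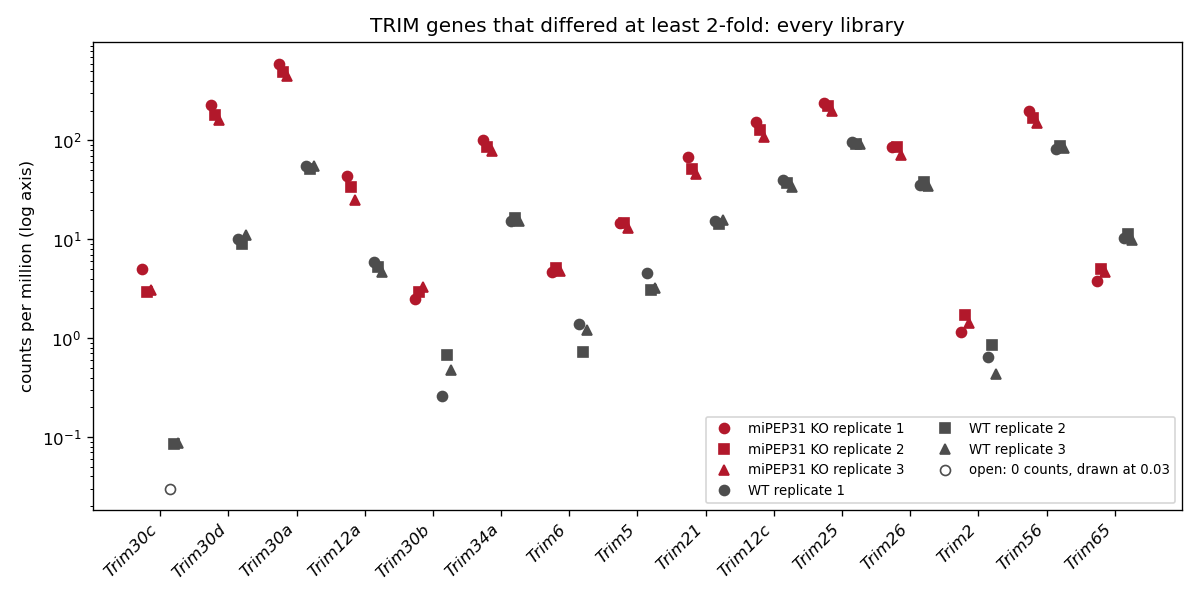
CPM of each library on a log axis (y) for the 15 members that differed at least 2-fold (x), with KO libraries left of WT libraries and one symbol for each replicate number; an open symbol marks 0 counts. No member's groups overlap: Trim30a stands at 449 to 598 CPM in KO libraries and 51.7 to 55.6 CPM in WT libraries, and Trim65 is the one member with KO libraries below, at 3.80 to 4.95 CPM against 9.92 to 11.2 CPM in WT.

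The TIF1 members are transcription cofactors with a PHD finger and a bromodomain. Trim28 (KAP1), the scaffold through which zinc finger proteins silence retroelements, had 379.8, 359 and 344 CPM in KO libraries, against 383, 381 and 425 CPM in WT libraries. The KO values lay just below the WT values and the test did not call the difference (log2 -0.13, SE 0.07, edgeR adjusted p = 0.138). Trim24, a coregulator of nuclear receptors, was higher in KO at 73.2 ± 5.38 CPM against 56.3 ± 1.38 CPM in WT (SD, n = 3 each; log2 0.38, SE 0.07, edgeR adjusted p = 0.00327). Trim33, which works with SMAD proteins, had 69.2 to 73.1 CPM in KO and 67.6 to 69.9 CPM in WT, and Trim66, best known from testis, had 1.03 to 2.07 CPM in KO and 2.15 to 2.60 CPM in WT. Neither passed, with log2 values of 0.05 for Trim33 and -0.53 for Trim66 (edgeR adjusted p = 0.514 and 0.156).

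The NHL-repeat members, which bind RNA or cargo proteins through a beta-propeller, had 1 gene higher, 1 lower and 2 that did not pass. Those shares are near the ones of all tested rows, 25.1% higher and 22.2% lower. Trim2, a ligase for neurofilament light chain in nerve cells, had 1.16, 1.71 and 1.42 CPM in KO libraries, against 0.650, 0.845 and 0.435 CPM in WT libraries. It was low in both groups without overlap (log2 1.15, SE 0.33, edgeR adjusted p = 0.0218), and its call was lost without KO replicate 2, WT replicate 1 or WT replicate 3 (edgeR adjusted p = 0.0869, 0.0678 and 0.0762). Trim32, a ligase mutated in a limb-girdle muscular dystrophy, was lower in KO at 19.8 ± 0.321 CPM against 25.9 ± 0.921 CPM in WT (SD, n = 3 each; log2 -0.39, SE 0.07, edgeR adjusted p = 0.00350). Trim3, best known from neurons, had 14.2 to 16.1 CPM in KO and 15.0 to 19.0 CPM in WT and was not called (log2 -0.16). Trim71, a target of let-7 in stem cells, averaged 0.633 ± 0.401 CPM in KO and 0.977 ± 0.175 CPM in WT (SD, n = 3 each) and was not called (log2 -0.63, edgeR adjusted p = 0.288). Without KO replicate 1, its highest KO library, Trim71 had a log2 change of -1.22 and was called (edgeR adjusted p = 0.0392).

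Of the 6 members grouped under the cell cycle, the centrosome and cell death, 2 were higher in KO and 4 did not pass, a share near the 25.1% of all rows higher, with a median log2 change of 0.02. Trim35, a ligase described as pro-apoptotic, was higher at 111 ± 8.89 CPM in KO against 82.0 ± 6.01 CPM in WT (SD, n = 3 each; log2 0.44, SE 0.08, edgeR adjusted p = 0.00315). Trim11 was higher at 38.7 ± 0.924 CPM in KO against 29.4 ± 0.721 CPM in WT (SD, n = 3 each; log2 0.40, SE 0.06, edgeR adjusted p = 0.00164). Trim39, Trim37, Trim59 and Trim36 had log2 values of -0.24 to 0.09. Among these 4, Trim37, which limits centriole duplication, had 37.7 to 46.1 CPM in KO and 42.2 to 44.7 CPM in WT, and Trim59 had 65.9 to 72.5 CPM in KO and 70.5 to 73.4 CPM in WT.

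The 7 other members gave 1 gene higher, 2 lower, 3 that did not pass and 1 that was not tested, beside 25.1% of all tested rows higher and 22.2% lower. Trim16, a TRIM protein without a RING finger, was lower in KO at 2.24 ± 0.461 CPM against 3.72 ± 0.163 CPM in WT (SD, n = 3 each; log2 -0.73, SE 0.20, edgeR adjusted p = 0.0186). It shares 237 exon bases with Fbxw10 on the same strand, which averaged 0.50 CPM in KO and 1.79 CPM in WT, and its call was lost without KO replicate 2, WT replicate 1 or WT replicate 3 (adjusted p = 0.0660, 0.0632 and 0.0509). Trim44, which also lacks a RING finger, was lower by a narrow margin at 93.8 ± 5.73 CPM in KO against 107 ± 4.94 CPM in WT (SD, n = 3 each; log2 -0.19, SE 0.07, edgeR adjusted p = 0.0464). Trim41, a ligase for protein kinase C, was higher by a like margin at 43.0 ± 4.28 CPM in KO against 35.7 ± 1.42 CPM in WT (SD, n = 3 each; log2 0.27, SE 0.09, edgeR adjusted p = 0.0334), and shares 31 exon bases with the far more abundant Rack1. The calls of Trim41 and Trim44 were each lost when any 1 library other than KO replicate 1 was left out, with edgeR adjusted p-values of 0.0754 to 0.133 for Trim41 and 0.0689 to 0.151 for Trim44.

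Trim7, which binds glycogenin, Trim45 and Trim46 did not pass, at log2 values of 0.28, 0.04 and -0.26. Trim46, known for bundling microtubules in axons, shares 239 exon bases with Krtcap2 and had 10.8 to 13.7 CPM in KO and 14.1 to 15.4 CPM in WT. Its edgeR adjusted p was 0.0976 with all libraries and 0.0418 without KO replicate 3. Trim9, a neuronal ligase, was the member just inside the minimum, at a mean of 0.552 CPM on unscaled totals. It had 0.259, 1.15 and 1.68 CPM in KO libraries, against 0, 0.169 and 0 CPM in WT libraries, 76 counts in KO and 4 in WT. Each KO library lay above each WT library, but Trim9 did not reach the count filter and met the membership minimum through the KO group alone, so no test of it is given. Trim47, just outside the minimum at a mean of 0.345 CPM, had 0.431, 0.298 and 0.473 CPM in KO libraries, against 0.390, 0.0845 and 0.392 CPM in WT libraries, which overlapped.

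The 26 TRIM genes below the minimum were Trim10, Trim15, Trim17, Trim29, Trim31, Trim34b, Trim38, Trim40, Trim42, Trim43a, Trim43b, Trim43c, Trim47, Trim50, Trim52, Trim54, Trim55, Trim58, Trim60, Trim61, Trim63, Trim67, Trim69, Trim72, Trim75 and Trim80. Of these, 7 had 0 counts in all libraries.

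Per kilobase of merged exons, which allows levels to be set side by side between genes, Trim30a was first among the members in KO cells at 125 CPM per kb and held rank 8 in WT cells at 13.2 CPM per kb. Trim28 came next in KO at 86.8 CPM per kb and first in WT at 95.3 CPM per kb. Trim30d held rank 3 in KO at 50.3 CPM per kb, against 2.67 CPM per kb and rank 26 in WT. After them in KO stood Trim25 at 38.4, Trim12c at 34.6 and Trim34a at 33.9 CPM per kb, which cannot be ordered within the spread of their libraries. In WT cells Trim59 at 21.5, Trim27 at 21.2 and Trim8 at 20.5 CPM per kb followed Trim28 and lay as close together.

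**Figure D5:**
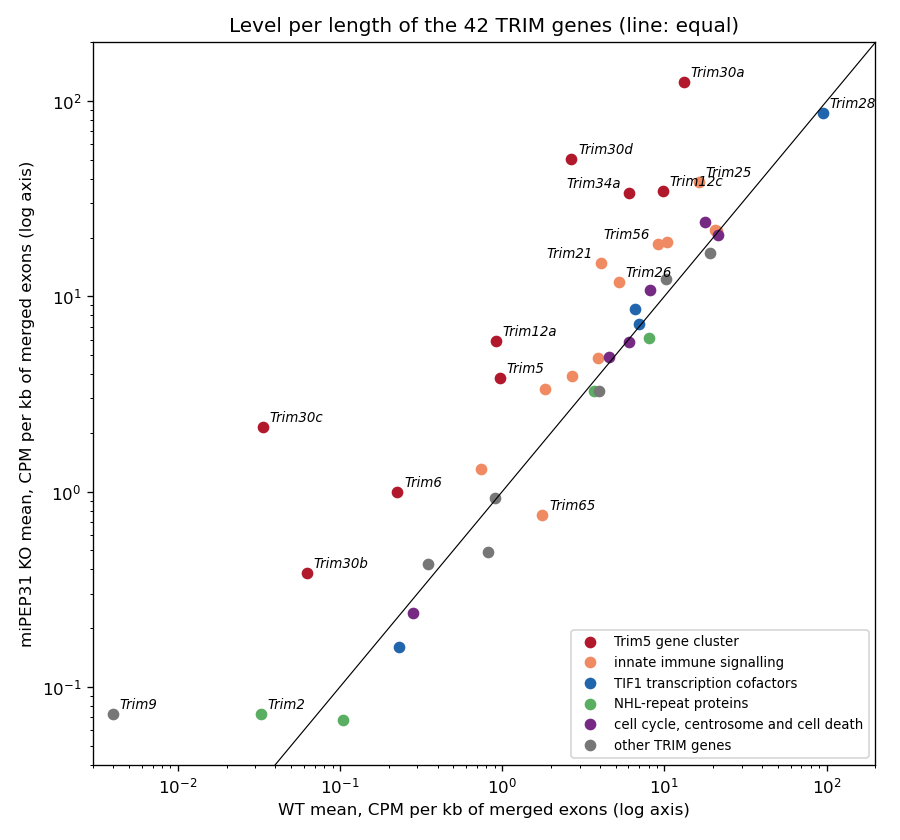
Mean level per kb of merged exons (CPM per kb, log axes) of each of the 42 members in KO cells (y) against WT cells (x), coloured by role, with the line of equal levels. Trim30a lies at 125 CPM per kb in KO and 13.2 in WT, and Trim28 lies near the line at 86.8 in KO and 95.3 in WT.

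The KO libraries differed among themselves in the members that were higher. Of the 14 members at least 2-fold higher, 9 were highest in KO replicate 1, 4 in KO replicate 2 and 1 in KO replicate 3, and 10 were lowest in KO replicate 3. Among 27 members averaging at least 10 CPM, the median coefficient of variation was 7.99% in KO libraries and 4.61% in WT libraries, and it was the larger in KO for 19 of the 27.

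Genes that TRIM proteins act with were read from 4 lists of 38 tested genes, of which 16 were higher in KO, 6 were lower and 16 were not called (median log2 change 0.17), beside 25.1% of all tested rows higher and 22.2% lower. These lists, too, were drawn up with earlier results of these data known. Among 3 TRIM-class genes with other names, Pml, the organiser of PML nuclear bodies, averaged 394 ± 22.2 CPM in KO and 156 ± 22.1 CPM in WT (SD, n = 3 each; log2 1.34, SE 0.10, edgeR adjusted p = 5.58e-05). Mid2 was also higher (log2 2.45, SE 0.28) and its relative Mid1, a microtubule-bound ligase, was lower (log2 -0.57, SE 0.14; edgeR adjusted p = 0.000287 and 0.0107). Mid2 reached 10 counts in 3 KO and 2 WT libraries and so passed the low-count filter through the KO group.

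Of 12 ubiquitin-conjugating enzymes, which hand ubiquitin or a like modifier to the ligase, 6 were higher, 1 was lower and 5 did not pass. Beside them, 25.1% of all tested rows were higher, 22.2% were lower and 47.3% were called in either direction. Ube2l6, the enzyme that conjugates ISG15, had 117, 86.2 and 72.8 CPM in KO libraries, against 8.75, 10.6 and 10.2 CPM in WT libraries. It had the largest change of the 12, with no overlap (log2 3.22, SE 0.18, edgeR adjusted p = 1.57e-05), while Ube2w, Ube2e3 and Ube2d3, which pair with RING ligases, were higher by log2 values of 0.56, 0.47 and 0.28.

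Of 16 signalling proteins that TRIM ligases modify or bind, 8 were higher, 1 was lower and 7 were not called (median log2 change 0.17). The shares of all tested rows were again 25.1% higher, 22.2% lower and 47.3% called in either direction. Ddx58 (RIG-I), the target of Trim25, averaged 105 ± 10.2 CPM in KO and 21.8 ± 1.00 CPM in WT (SD, n = 3 each; log2 2.27, SE 0.09, edgeR adjusted p = 2.92e-06). Ifih1 (MDA5), the target of Trim65, had 239.9, 173 and 117 CPM in KO libraries, against 15.6, 11.5 and 11.6 CPM in WT libraries. It was higher in each KO library while Trim65 was lower in each (log2 3.77, SE 0.27, edgeR adjusted p = 3.97e-05). Cgas and Tbk1, the DNA sensor and the kinase below it, were higher by log2 values of 0.80 and 0.43.

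Of 7 genes of the Trim28 silencing complex, 3 were lower, 0 were higher and 4 were not called (median log2 change -0.17). Among all tested rows 22.2% were lower and 25.1% higher, and 47.3% were called in either direction. Chd3, a remodeller that the Trim28 PHD finger and bromodomain recruit, averaged 82.4 ± 8.57 CPM in KO and 168 ± 4.08 CPM in WT (SD, n = 3 each; log2 -1.03, SE 0.08, edgeR adjusted p = 6.02e-05). Cbx3, a heterochromatin protein, and Chd4 were lower by smaller margins, at log2 values of -0.44 and -0.35.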

How the data were processed

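RNA from the 6 libraries was prepared with Trizol and a TruSeq kit, per the labels' protocols. Bowtie 0.12.2 and mm8 stand in the submitters' processing notes without a role, and no source used here gives the counting tool or its use of strand. The authors deposited 1 table of estimated counts per gene, of which 72.21% of positive values are whole; values were rounded. Of 52856 rows, 944 have assembler IDs (MSTRG) and hold 0.903% to 1.56% of counts. Gene IDs were matched to GENCODE M21 (GRCm38), with which all gene coordinates are given, and 51633 of 51912 Ensembl IDs had a symbol. KO was tested against WT with edgeR 4.0.16 in R 4.3.3 (TMM scaling, filterByExpr with a count minimum of 10, robust quasi-likelihood test, Benjamini-Hochberg adjustment over 14387 rows, threshold 0.05). Printed CPM use TMM-scaled totals, the membership minimum unscaled ones. A standard error is the log2 change over the root of F. DESeq2 1.42.0 and limma 3.58.1 were alternatives, and the fit was tested on simulated data. Far fewer rows were changed in the simulated data than were called here, so the fit was not tested at such a share. Overlapping genes cannot be told apart where strand was not used. The members and lists were chosen with earlier results of these data known. By rule every member is named, and library values are given for members called at 2-fold or more, the 3 most abundant, Trim21, Trim25, Trim27, Trim28, Trim5, Trim30a and those at the minimum. Up to 4 called genes per partner list, by p, are named.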

Additional observations from a re-analysis of the deposited data

How the results depend on the processing

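Over 14 or 15 alternatives per gene, 579 member values kept their direction and side of the threshold; 26 lost a call (Trim2, Trim16, Trim23, Trim41, Trim44 and Trim62), 2 gained one and 7 turned sign. With 1 library left out, 19 to 24 members were higher and 2 to 5 lower. All 7 turned values were of uncalled genes: Trim27 was -0.01 with upper-quartile scaling and -0.02 to 0.10 with a library left out, where Trim45 ran from -0.11 to 0.18, Trim37 from -0.13 to 0.00 and Trim7 from -0.10 to 0.54. The cause was not tested. Same-numbered libraries did not deviate together (correlations of 0.001, -0.007 and -0.016). No shared effect was seen over all rows, but a small one or one on part of the rows could be missed. Nor can these correlations tell whether the libraries were prepared in pairs. With the replicate block 21 members were higher and 3 lower, and 5736 rows were called in all. Upper-quartile scaling lost the call of Trim41 and plain library sizes that of Trim44. RLE size factors, DESeq2, limma-voom, other low-count filters and leaving out MSTRG rows lost none of the 27 member calls. Summing near copies gave 19 higher and 4 lower of 37, where the main fit had 25.1% of all tested rows higher and 22.2% lower. At these totals, low genes such as Trim9, Trim30c and Trim71 rest on few counts.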
